A study of Mus musculus with 2 samples.

Results

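The genes that encode extracellular matrix proteases of the ADAMTS and MMP families, the protease-like ADAMTSL proteins and the TIMP inhibitors were examined in DNase-seq libraries of newborn mouse heart. A gene was included when GENCODE vM21 lists it as protein-coding on chromosomes 1 to 19 or X and its symbol is Adamts, Adamtsl, Mmp or Timp followed by a number. This gave 49 of 21755 protein-coding genes, namely 19 Adamts, 5 Adamtsl, 21 Mmp and 4 Timp genes. The rule itself uses no measured value. The 2 libraries came from heart tissue of strain B6NCrl at postnatal day 0, are labelled biological replicates 1 and 2, and form the only group, with no treatment, second genotype or second age. DNase I cuts accessible chromatin first, so the ends it releases mark regulatory DNA at promoters and at distal elements. Both libraries carry the same donor label, so the spread between them may be technical.

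ADAMTS proteins are secreted zinc metalloproteases that cut proteoglycans such as versican and aggrecan, procollagens, COMP or von Willebrand factor. MMPs are zinc metalloproteases that cut collagens, gelatin and many other matrix proteins, and most are secreted or membrane-bound proenzymes that must be activated. ADAMTSL proteins share the ancillary domains of ADAMTS proteins but lack the protease domain, and several bind fibrillin microfibrils. TIMPs are small secreted proteins that block the active site of MMPs, and TIMP3 also blocks several ADAMTS proteases. In the developing heart, turnover of versican-rich matrix accompanies trabeculation and the shaping of the valves.

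Replicate 1 listed 164847 peaks and 152666 hotspots, and replicate 2 listed 144867 peaks and 132765 hotspots. Each peak is 150 bp long and carries the authors' own value, a whole number of at most 150 whose scaling is not given, and the medians were 36 (replicate 1) and 35 (replicate 2). It is used here only to describe and rank peaks within a list, and paired values of a gene are those of replicate 1 and replicate 2, in that order. A promoter peak has its centre within 500 bp of any annotated transcription start site (TSS) of the gene. All 8 cardiomyocyte, 6 fibroblast and 5 endothelial markers carried promoter peaks in both libraries, as did 4 of 5 smooth muscle markers. Over all protein-coding genes the share was 64.2%. Of 4 chondrocyte markers, Sox9 and Col2a1 carried them in both. Among 7 leukocyte markers Cd68 alone did, with 39 in replicate 1 and 29 in replicate 2. Among 7 genes of tissues foreign to the heart Ins2 did, with 34 and 43, and Gfap, with 50 and 68. A promoter peak alone thus does not mark a cell type here. In whole tissue, fewer cells of a type and less accessibility per cell cannot be told apart, and a gene without a listed peak is not shown to be closed.

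Promoter peaks were listed in both libraries at 33 of the 49 genes (67.3%), against 64.2% of all protein-coding genes, a share close to the background. The 4 genes with a promoter peak in 1 library were all listed in replicate 2, and 12 genes had none in either library. Of these 12, 8 stand in 1 Mmp cluster on chromosome 9. Without that cluster, 33 of 41 genes (80.5%) had promoter peaks in both libraries, a split made after the values had been seen. By family, 15 of 19 Adamts genes, 5 of 5 Adamtsl genes, 10 of 21 Mmp genes and 3 of 4 Timp genes had one in both. Hotspots, the broader regions of enriched cleavage that the authors called, reached the promoter window of 34 genes (69.4%) in both libraries, against 65% of all protein-coding genes. Hotspots at the highest listed −log10 q-value of 100 did so in both libraries at 20 genes (40.8%), against 52.9% of all protein-coding genes. The highest promoter peak of a gene had a median value of 66 in replicate 1 over 33 genes and 58 in replicate 2 over 37 genes. For all protein-coding genes with a promoter peak the medians were 88 and 84. Over all 49 genes, promoters of matrix protease and inhibitor genes were listed about as often as those of all genes, with lower values in both libraries.

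**Figure D1:**
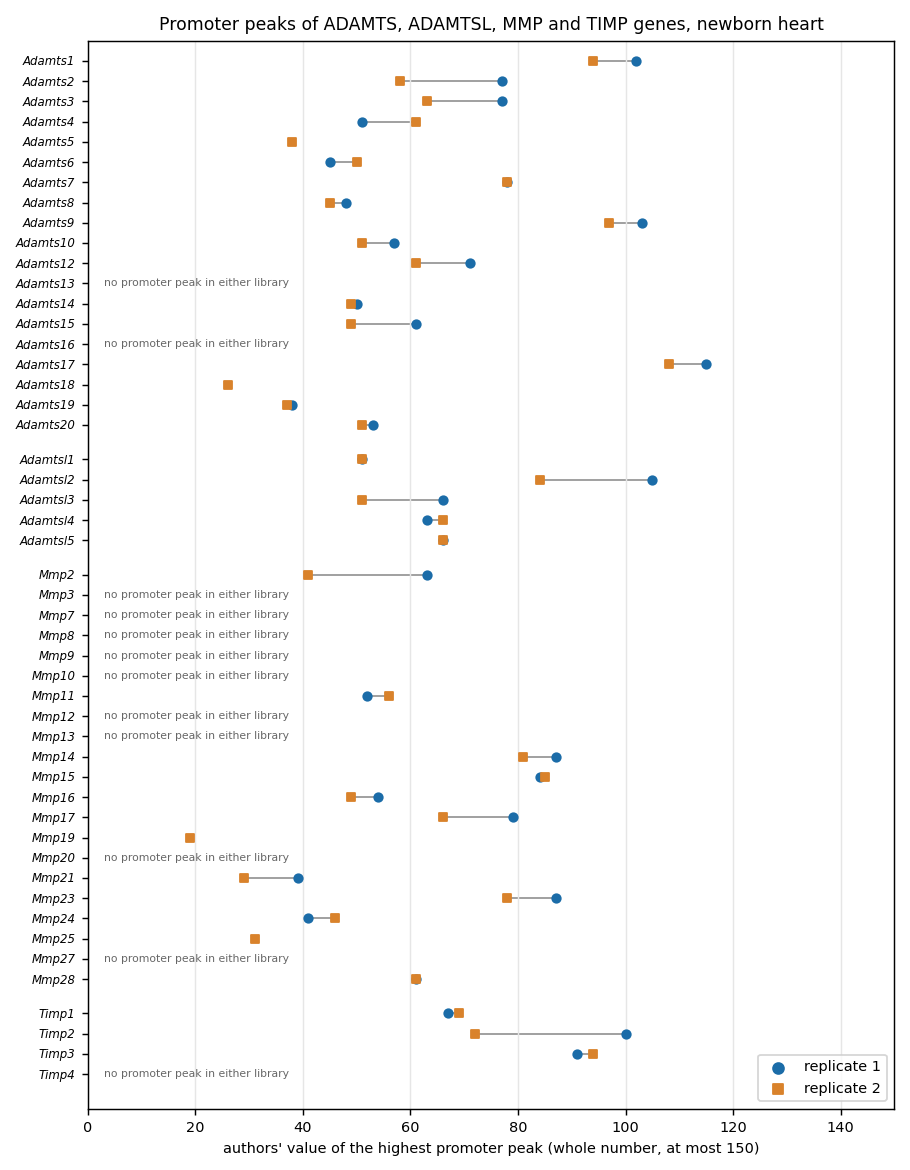
Value of the highest promoter peak of each of the 49 genes, with replicate 1 as circles and replicate 2 as squares, on the authors' scale of whole numbers up to 150. Genes are grouped by family, a single square marks the 4 genes listed in replicate 2 alone, and 12 genes, 9 of them Mmp genes, had no promoter peak in either library.

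Over the 33 genes with a promoter peak in both libraries, the highest values of the libraries had a Spearman rho of 0.895 across genes, which are not independent replicates. The value was higher in replicate 1 for 21 genes, higher in replicate 2 for 8 and equal for 4. The highest peaks of the libraries overlapped by at least 1 bp at 29 of these genes, and at the remaining 4, Adamts6, Adamts15, Mmp24 and Timp3, other promoter peaks did. The largest spread was at Timp2, with 100 in replicate 1 and 72 in replicate 2.

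Of the 7 ADAMTS genes that cut versican and related proteoglycans, 6 carried promoter peaks in both libraries. Adamts9, whose product cuts versican in the developing heart, had 103 in replicate 1 and 97 in replicate 2 (mean 100 ± 4.24, SD, n = 2). Adamts1, a versican and aggrecan protease, had 102 and 94 (mean 98.0 ± 5.66, SD, n = 2). Both peaks lay just upstream of the gene and stood near the top of all peaks of their library, at mean percentiles of 96.8 for Adamts9 and 96.4 for Adamts1. Adamts4, known as an aggrecanase, was lower, with 51 in replicate 1 and 61 in replicate 2. Adamts8 had 48 and 45, Adamts15 had 61 and 49, and Adamts20 had 53 and 51, the last at an internal TSS and not at the gene's 5′ end. Adamts8 and Adamts15 are neighbours that point away from each other, with 20.1 kb between their 5′ ends.

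Adamts5, which cuts aggrecan and versican and takes part in valve maturation, was the member of this class without a promoter peak in both. Replicate 2 listed a peak of 38 centred 377 bp downstream of its 5′ end. Replicate 1 listed its nearest peak, of 47, 657 bp from the TSS and so outside the window, while promoter hotspots were present in both libraries. Adamts1 and Adamts5 stand in tandem on chromosome 16 with 98.7 kb between their 5′ ends, and in replicate 2 their promoter values were 94 for Adamts1 and 38 for Adamts5.

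All 3 procollagen N-proteinase genes carried promoter peaks in both libraries. Adamts2 had 77 in replicate 1 and 58 in replicate 2, Adamts3 had 77 and 63, and Adamts14 had 50 and 49. The highest peaks of Adamts3 were near an internal TSS, 1103 bp into the gene in replicate 1 and 1083 bp in replicate 2. The peaks nearest its 5′ end had 65 in replicate 1 and 62 in replicate 2. The window of Adamts2 also holds a TSS of Gm12198, so its peak cannot be assigned to either gene. Adamts7 and Adamts12, which cut COMP, had 78 in both libraries and 71 and 61. Adamts13, which cuts von Willebrand factor and is known mainly from liver, had no promoter peak in either library, and its nearest peaks lay 8465 bp away in replicate 1 and 8825 bp away in replicate 2.

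Among the 6 other ADAMTS genes, Adamts17 had the highest promoter value of all 49 genes, with 115 in replicate 1 and 108 in replicate 2 (mean 111.5 ± 4.95, SD, n = 2). Adamts17 and Adamts10 are linked in humans to Weill-Marchesani syndromes, which are disorders of fibrillin-rich matrix, and Adamts10 had 57 and 51. Adamts6 had 45 and 50, and Adamts19 had 38 and 37. Adamts18 was listed in replicate 2 alone, with a value of 26. Adamts16 had no promoter peak, but a peak of 48 in replicate 1 and 51 in replicate 2 lay 1440 bp and 1460 bp downstream of its TSS.

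All 5 Adamtsl genes carried promoter peaks in both libraries. Adamtsl2, which binds fibrillin and is altered in geleophysic dysplasia in humans, was the highest, with 105 in replicate 1 and 84 in replicate 2 (mean 94.5 ± 14.8, SD, n = 2). Adamtsl4, altered in human ectopia lentis, had 63 and 66, Adamtsl5 had 66 in both, and Adamtsl3 had 66 and 51. The peaks of Adamtsl3 within 250 bp of a TSS had 33 in replicate 1 and 27 in replicate 2. Adamtsl1 had 51 in both libraries at an internal TSS, with the peak of replicate 1 centred 539759 bp into the gene, while the peaks at its 5′ end reached 35 in replicate 1 and 22 in replicate 2.

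Sequences of 4 high promoter peaks that lie wholly upstream of the gene are shown because they hold different core promoter letters. They are the positions of replicate 1 in mm10, read 5′ to 3′ on the strand of the gene, with capitals for the SP/KLF motif GGGCGG and the TATA motif TATAAA on either strand. Adamts17 lies at chr7:66839556-66839705 (+), Adamts1 at chr16:85803136-85803285 (−), Adamtsl2 at chr2:27079216-27079365 (+) and Mmp14 at chr14:54431436-54431585 (+).
Adamts17: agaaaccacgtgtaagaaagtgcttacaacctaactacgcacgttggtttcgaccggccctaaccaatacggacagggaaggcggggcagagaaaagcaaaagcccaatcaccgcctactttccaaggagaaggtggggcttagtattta
Adamts1: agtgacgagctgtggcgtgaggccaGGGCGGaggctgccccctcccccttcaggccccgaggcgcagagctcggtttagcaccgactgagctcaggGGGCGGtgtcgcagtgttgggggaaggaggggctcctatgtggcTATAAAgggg
Adamtsl2: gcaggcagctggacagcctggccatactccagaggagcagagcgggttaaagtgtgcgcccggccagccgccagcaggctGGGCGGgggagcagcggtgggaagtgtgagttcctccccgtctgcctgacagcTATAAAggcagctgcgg
Mmp14: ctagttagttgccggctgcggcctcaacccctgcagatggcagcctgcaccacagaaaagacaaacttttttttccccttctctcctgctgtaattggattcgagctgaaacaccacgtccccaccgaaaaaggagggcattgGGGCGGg
The peak of Adamts17 holds neither motif, that of Adamts1 holds SP/KLF 2 times and TATA 1 time, that of Adamtsl2 holds each 1 time, and that of Mmp14 holds SP/KLF 1 time. Over all promoter peaks of the 49 genes, SP/KLF was present in 37.5% of 144, against 41.5% of all promoter peaks of protein-coding genes. The TATA letters were present in 4.17%, against 2.63%, and the AP-1 motif TGANTCA in 2.78%, against 3.17%. The mean GC content of these peaks was 63.1% in both libraries, against 62.4% and 62.6% for all protein-coding genes. A match to a motif is a description of the letters and not of a bound factor.

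Mmp14, the membrane-type MMP that activates the proenzyme of MMP2 together with TIMP2, had 87 in replicate 1 and 81 in replicate 2 (mean 84.0 ± 4.24, SD, n = 2). Of the 6 membrane-type genes, 5 carried promoter peaks in both libraries, Mmp15 with 84 and 85, Mmp17 with 79 and 66, Mmp16 with 54 and 49, and Mmp24 with 41 and 46 beside Mmp14. Mmp25, also called leukolysin, was listed in replicate 2 alone, with 31. The gelatinase genes differed from each other. Mmp2 had 63 in replicate 1 and 41 in replicate 2 (mean 52.0 ± 15.6, SD, n = 2), whereas Mmp9, abundant in neutrophils and macrophages, had no promoter peak. The peak nearest to Mmp9 lay 1929 bp upstream in replicate 1, with a value of 41, and 1969 bp upstream in replicate 2, with 40.

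Neither collagenase gene, Mmp8 or Mmp13, had a promoter peak, and of the 3 stromelysin genes Mmp11 alone did, with 52 and 56. These peaks of Mmp11 were at an internal TSS, 3965 bp into the gene in replicate 1 and 3945 bp in replicate 2. The peaks nearest its 5′ end had 44 in replicate 1 and 48 in replicate 2. Among the 8 other MMP genes, 3 carried promoter peaks in both libraries, namely Mmp23 with 87 and 78, Mmp28 with 61 in both and Mmp21, needed for left-right asymmetry, with 39 and 29. The highest peak of Mmp23 lay 1613 bp into the gene in replicate 1 and 1633 bp in replicate 2, and its mean promoter value was 51.5 in place of 82.5 within 250 bp of any TSS, with protein-coding transcripts alone or at the 5′ end alone. Mmp19 was listed in replicate 2 alone, with 19, the lowest among the 37 genes with a promoter peak in that library. Mmp7, Mmp12, Mmp20 and Mmp27 had none.

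Of the 12 genes without a promoter peak, 8 stand in 1 tandem cluster at chr9:7272514-7699585 (mm10), which holds Mmp13, Mmp12, Mmp3, Mmp10, Mmp8, Mmp27, Mmp20 and Mmp7 in that order, along with Mmp1b. The products of these genes include the neutrophil collagenase MMP8, the macrophage elastase MMP12, the matrilysin MMP7 and the tooth protease MMP20. None of these 8 genes had a promoter peak or a promoter hotspot in either library. The cluster spans 427.1 kb and held 8 peaks in replicate 1 and 5 in replicate 2, which is 1.87 and 1.17 peaks per 100 kb, against 6.25 and 5.49 over the whole of the analysed chromosomes.

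The peaks of the cluster were unevenly placed. No peak was listed over 274.8 kb in replicate 1 and 275.4 kb in replicate 2, a stretch that holds all of Mmp13, Mmp12, Mmp3 and Mmp10. It is bounded on one side by a peak 2223 bp upstream of Mmp13, with 61 in replicate 1 and 67 in replicate 2, and on the other by peaks upstream of Mmp8. The strongest peak of the cluster, with 86 and 84, lay between Mmp27 and Mmp20, 24015 bp from the 5′ end of Mmp27. It is shown here as the strongest site of the locus, at chr9:7595336-7595485 (mm10, + strand).
Peak between Mmp27 and Mmp20: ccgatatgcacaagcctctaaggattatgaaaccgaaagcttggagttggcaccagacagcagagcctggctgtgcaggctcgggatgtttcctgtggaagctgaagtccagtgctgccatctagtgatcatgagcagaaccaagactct
None of the 10 motifs searched is in these 150 bases, and for this reason there are no capitals.

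**Figure D2:**
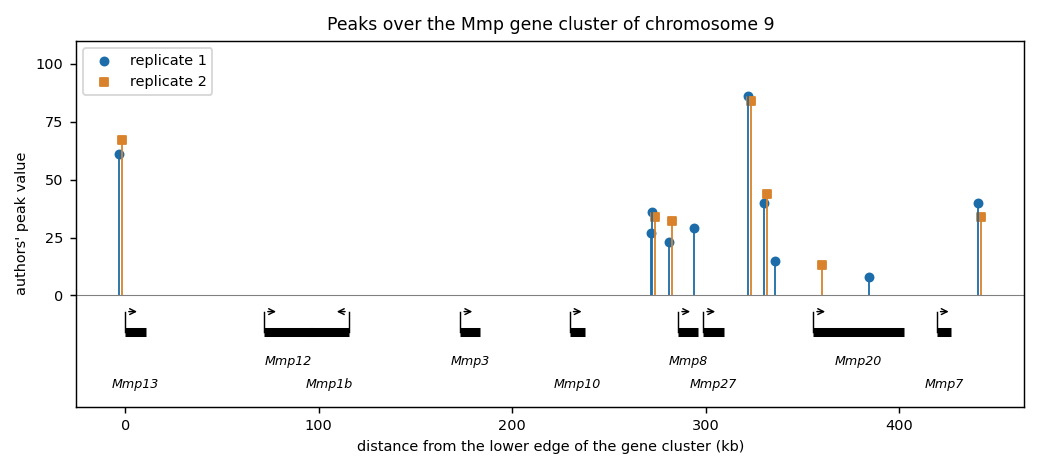
Peaks of both libraries over the Mmp cluster of chromosome 9, with the distance from its lower edge in kb across and the authors' peak value up. Black bars are genes and arrows mark their 5′ ends and direction. The left part of the cluster is empty beyond the peak 2223 bp upstream of Mmp13, and the highest points, 86 and 84, stand at 322.9 kb.

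The letters of these promoters were searched next. In the RefSeq table of promoters (GRCm38.p6, 250 bases before to 50 after the start), 34 of the 49 genes were matched, 22 of them with a promoter peak in both libraries and 10 with none. A gene counted when any of its RefSeq promoters held the motif. AP-1 (TGANTCA on either strand) was found at 6 of those 10 genes, Mmp3, Mmp7, Mmp10, Mmp12, Mmp13 and Mmp20, and at 0 of the 22 with a peak. Counted by promoter, it was in 16.2% of the 37 promoters of the 34 genes, against 7.85% of all RefSeq promoters. TATAAA was found at 7 of the 10, these 6 and Mmp8, and at 3 of the 22, Adamts1, Adamtsl2 and Mmp21, against 13.7% of all RefSeq promoters. Within the cluster, 6 of 8 genes thus held AP-1 in a RefSeq promoter and 7 of 8 held TATAAA, and Mmp27 held neither. SP/KLF (GGGCGG) was found at 1 of the 10 genes, Adamts13, and at 19 of the 22. By promoter it was in 59.5% of the 37, against 35.9% of all. The 6 genes are tandem copies of related genes, so they do not count as independent cases, and this split was made after the values had been seen.

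The stretch from 110 bases before to 20 after the RefSeq start is shown for these 6 promoters, since together they carry the pairing of AP-1 and TATA letters without a DNase peak. All are on the + strand of GRCm38.p6, read 5′ to 3′, with AP-1 and TATA in capitals. Mmp13 lies at chr9:7272404-7272533, Mmp12 at its second RefSeq start at chr9:7347264-7347393, Mmp3 at chr9:7445712-7445841, Mmp10 at chr9:7502232-7502361, Mmp20 at chr9:7628121-7628250 and Mmp7 at chr9:7691980-7692109.
Mmp13: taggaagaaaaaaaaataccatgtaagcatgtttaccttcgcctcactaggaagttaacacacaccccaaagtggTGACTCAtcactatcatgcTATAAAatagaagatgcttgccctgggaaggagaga
Mmp12: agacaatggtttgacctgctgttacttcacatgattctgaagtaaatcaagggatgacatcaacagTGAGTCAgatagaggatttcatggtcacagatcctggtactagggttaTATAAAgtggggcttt
Mmp3: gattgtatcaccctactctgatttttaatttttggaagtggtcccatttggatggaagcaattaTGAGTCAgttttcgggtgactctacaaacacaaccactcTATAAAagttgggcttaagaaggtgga
Mmp10: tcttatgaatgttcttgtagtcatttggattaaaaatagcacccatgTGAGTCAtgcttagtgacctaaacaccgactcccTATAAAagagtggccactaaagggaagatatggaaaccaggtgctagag
Mmp20: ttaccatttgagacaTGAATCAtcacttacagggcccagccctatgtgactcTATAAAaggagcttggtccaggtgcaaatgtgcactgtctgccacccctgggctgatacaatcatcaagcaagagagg
Mmp7: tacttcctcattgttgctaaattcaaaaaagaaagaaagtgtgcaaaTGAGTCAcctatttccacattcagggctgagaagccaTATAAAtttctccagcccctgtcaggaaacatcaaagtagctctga
In each of the 6, AP-1 stands upstream of TATA, with 19 bases between their first letters at Mmp13, 34 at Mmp10, 37 at Mmp7 and Mmp20, 39 at Mmp3 and 48 at Mmp12. The AP-1 letters are TGAGTCA at Mmp3, Mmp7, Mmp10 and Mmp12, TGACTCA at Mmp13 and TGAATCA at Mmp20. At Mmp13 the first letter of AP-1 is 35 bases before the start, and at Mmp20 it is 95 bases before it. At Mmp12 the TATA letters begin 4 bases past the start shown.

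Of the inhibitors, Timp1, Timp2 and Timp3 carried promoter peaks in both libraries and Timp4 had none. Timp3, which binds to the matrix and also inhibits ADAMTS proteases, had 91 in replicate 1 and 94 in replicate 2 (mean 92.5 ± 2.12, SD, n = 2). These highest peaks were at different TSSs, and each library also listed the other, with 88 in replicate 1 and 83 in replicate 2. Timp2 had 100 and 72 (mean 86.0 ± 19.8, SD, n = 2), and Timp1 had 67 and 69 (mean 68.0 ± 1.41, SD, n = 2). Timp4, the TIMP known for its expression in adult heart, had its nearest peak 10774 bp away in replicate 1, with 46, and 10794 bp away in replicate 2, with 39. Timp1, Timp3 and Timp4 lie within the synapsin genes Syn1, Syn3 and Syn2, so distal sites around them are also those of their hosts.

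Promoters were further divided by CpG content, measured as the observed over the expected number of CpG within 500 bp of the gene's 5′ end, into 3 classes of equal size with limits at 0.309 and 0.71. In the low class, 5 of 18 genes (27.8%) carried promoter peaks in both libraries, against 21.6% of all protein-coding genes. Those 5 were Adamts4, Adamts12, Adamtsl2, Mmp21 and Timp1. In the middle class, 21 of 23 (91.3%) had one, against 76.2%, with Adamts16 and Mmp25 as the exceptions. In the high class, 7 of 8 (87.5%) had one, against 95%, with Adamts18 as the exception. All genes without a promoter peak except Adamts16 were in the low class. Among genes with a promoter peak in both libraries, the median value in the middle class was 63 in replicate 1 and 61 in replicate 2, against 82 and 77 for all protein-coding genes. In the high class it was 77 and 58, against 97 and 94, and in the low class 67 and 61, against 65 and 59.5. The lower values of matrix protease and inhibitor promoters thus appeared in the middle and high classes and not in the low class, which held 5 genes.

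**Figure D3:**
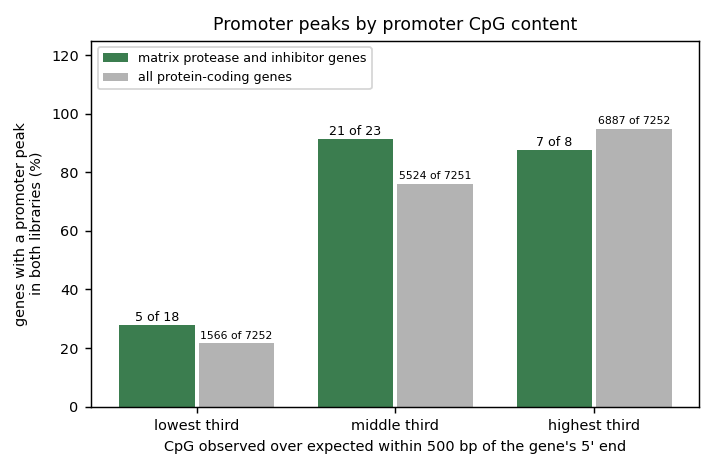
Share of genes with a promoter peak in both libraries in each class of promoter CpG content, with matrix protease and inhibitor genes in green and all protein-coding genes in grey, and counts above the bars. The share is 27.8% against 21.6% in the low class, 91.3% against 76.2% in the middle class and 87.5% against 95% in the high class.

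Distal peaks were those centred more than 1 kb from every annotated TSS and within 50 kb of any TSS of the gene. The median over the 49 genes was 7 per gene as the mean of both libraries, 8 in replicate 1 and 7 in replicate 2, against 6 in both for all protein-coding genes. Genes with many or widely spaced TSSs have larger windows, and per 100 kb of window the median was 5.78, against 5.19. By family the median was 8.5 for Adamts, 13 for Adamtsl, 5 for Mmp and 12.75 for Timp genes. The windows also hold neighbouring genes, and the nearest protein-coding TSS belonged to 1 of the 49 genes for 289 of 430 distal peaks in replicate 1 and 267 of 391 in replicate 2.

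By the mean of both libraries, Adamts17 and Adamtsl4 had the most distal peaks, 29.5 each. Adamts17 had 36 in replicate 1 and 23 in replicate 2, where Adamtsl4 with 26 and Adamts2 with 24 had more. Adamts17 spans 313.4 kb, and 28 of its peaks in replicate 1 and 16 in replicate 2 lay inside the gene. Per 100 kb of window it had 10.94, at the percentile 88.3 of all protein-coding genes, and with a window around its 5′ end alone its mean was 11 peaks. Of its 36 peaks in replicate 1, 22 overlapped a peak of replicate 2, and of its 23 in replicate 2 all did. Over the 49 genes, the counts per gene of the libraries had a Spearman rho of 0.927.

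Adamtsl4 spans only 11.7 kb, yet 33 distal peaks in replicate 1 and 26 in replicate 2 lay around it. Per 100 kb of window this was 26.63, at the percentile 99.9 of all protein-coding genes. For 16 of the peaks in replicate 1 and 18 in replicate 2, the nearest protein-coding TSS was that of Adamtsl4, and 1 in each library lay inside the gene.

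The next genes by distal peaks were Adamts2 with 16 and 24, Adamts9 with 18 and 21, Adamtsl3 with 18 and 19, Adamts7 with 17 and 18, Mmp15 with 15 and 19, and Timp2 with 17 and 12. This order changed with the window. With a window around the 5′ end alone, the means were 11.5 for Adamts2, 11 for Adamts9 and 8.5 for Adamtsl3, against 16 for Mmp15, 16 for Adamts7 and 14.5 for Timp2. At Adamts9, 12 peaks in replicate 1 and 14 in replicate 2 were inside the gene. Of the other genes well known in heart matrix, Timp3 had 14 in both libraries, 8 and 9 of them inside the gene. Mmp2 had 10 and 7, Adamts1 had 9 and 10, Adamts4 had 9 and 8, and Mmp14, despite its high promoter value, had 4 and 6. Adamts5 had 4 and 7 and Timp1 had 3 and 4. Mmp9 and Timp4 had no promoter peak but had 10 and 8 and 12 and 11 distal peaks in their windows. Of these, 1 in each library was nearest to Mmp9 and 0 were nearest to Timp4. Mmp3 and Mmp12, which stand in the empty stretch of the chromosome 9 cluster, had 0 in both libraries.

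**Figure D4:**
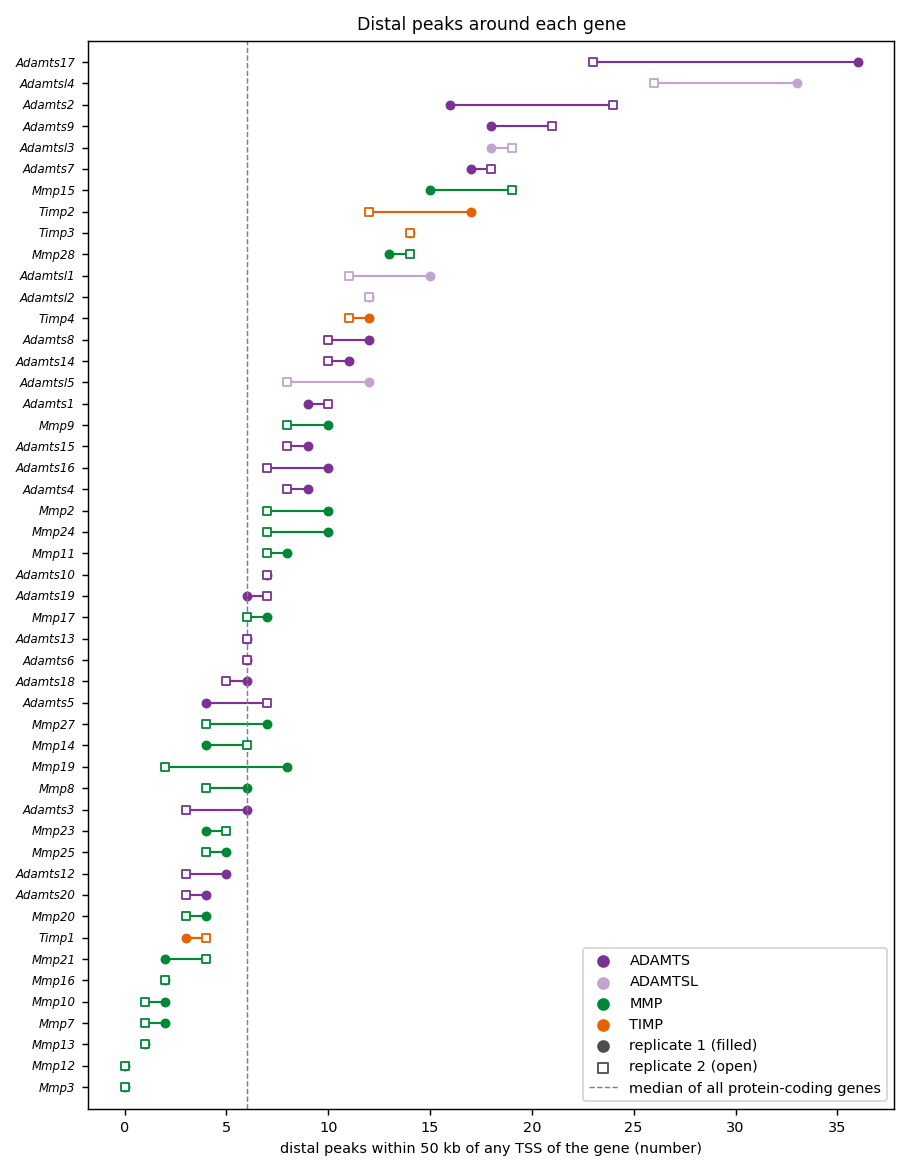
Number of distal peaks within 50 kb of any TSS of each of the 49 genes, sorted by the mean of both libraries, with replicate 1 filled, replicate 2 open and families in colour. The dashed line is the median of all protein-coding genes, 6, and Adamts17 and Adamtsl4 stand furthest to the right with means of 29.5.

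Distal peaks near the 49 genes numbered 430 in replicate 1 and 391 in replicate 2, each counted once. Of these, 73.3% and 82.4% overlapped a peak of the other library, against 67.7% and 79.4% of all distal peaks. Their median value was 39 in replicate 1 and 37 in replicate 2, against 33 and 32. The highest by mean value over both libraries lay 46822 bp downstream of the 5′ end of Adamts1, past the end of the gene, with 117 in replicate 1 and 105 in replicate 2 (mean 111.0 ± 8.49, SD, n = 2). The next lay past the end of Adamtsl4, with 104 and 110 (mean 107.0 ± 4.24, SD, n = 2). A peak in an intron of Timp3, 41379 bp from its 5′ end, had 114 and 97, a peak in an intron of Adamts17, 116436 bp from its 5′ end, had 101 and 107, and a peak in an intron of Adamts9 had 111 and 87. The highest distal peaks near Adamts1, Adamtsl4 and Timp3 exceeded the promoter value of the gene in both libraries. So did distal peaks near Mmp28, with 104 and 89, and Adamts4, with 96 in both. For Adamts1 the gap depended on the promoter window. Its mean promoter value was 98.0 within 500 bp of any TSS and 110 within 1000 bp, close to the distal mean of 111.0. The peak near Adamts4 lay 12890 bp from its 5′ end, and the nearest protein-coding TSS, 7017 bp away, was that of B4galt3. Distal peaks also exceeded the promoter value in both libraries at other genes, among them Adamts8, Adamts14 and Mmp2, but not at Mmp14 or Timp1. The share over all protein-coding genes was not computed.

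The sequences of 3 of the 5 highest distal peaks are shown, each of which holds a searched motif. They are given at the positions of replicate 1 in mm10, on the strand of the gene and 5′ to 3′. Capitals mark any of the 10 motifs searched. They lie at chr16:85756216-85756365 (−) for Adamts1, chr3:95674316-95674465 (−) for Adamtsl4 and chr7:66956096-66956245 (+) for Adamts17.
Adamts1 distal: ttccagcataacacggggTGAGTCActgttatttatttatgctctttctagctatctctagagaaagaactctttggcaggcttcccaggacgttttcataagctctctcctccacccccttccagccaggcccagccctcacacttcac
Adamtsl4 distal: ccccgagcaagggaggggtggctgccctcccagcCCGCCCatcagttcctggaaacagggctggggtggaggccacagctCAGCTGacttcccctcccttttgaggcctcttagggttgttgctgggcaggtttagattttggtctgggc
Adamts17 distal: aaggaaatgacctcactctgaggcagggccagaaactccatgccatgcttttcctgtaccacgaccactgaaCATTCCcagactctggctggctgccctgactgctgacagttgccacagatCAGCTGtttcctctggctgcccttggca
The site near Adamts1 holds AP-1 as TGAGTCA, the site near Adamtsl4 holds SP/KLF and the E-box CAGCTG, and the site near Adamts17 holds TEAD (GGAATG, here on the opposite strand) and the E-box. The peaks in introns of Timp3 and Adamts9, also among the 5 highest, hold none of the 10 motifs in replicate 1 and are not shown.

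The same motifs were counted on both strands over all distal peaks near the 49 genes, 821 with the libraries pooled, and over all 225242 distal peaks. AP-1 was in 7.55%, against 8.33%, and GATA, searched as AGATAA, in 6.09%, against 9.7%, with 6.28% and 5.88% in the single libraries against 9.93% and 9.44%. TEAD was in 12.7%, against 12.2%, RUNX (TGTGGT) in 12.4%, against 10.4%, and the E-box in 16.7%, against 14%. SP/KLF was in 6.82%, against 5.32%, ETS (CCGGAA) in 1.95%, against 2.95%, FOX (TGTTTAC) in 1.58%, against 2.01%, and MEF2 (CTAAAAATA) in 1.1%, against 1.62%. Of the 9 motifs, GATA was the one whose share was furthest from that of all distal peaks in percentage points. The mean GC content of these peaks was 51.8% in replicate 1 and 51.5% in replicate 2, against 49.9% and 49.8%, and its part in these shares was not tested.

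**Figure D5:**
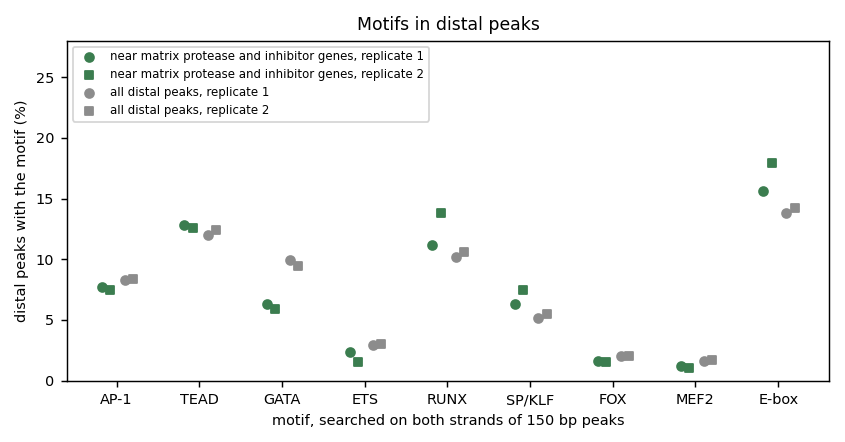
Share of distal peaks that hold each of 9 motifs, near the 49 genes in green and over all distal peaks in grey, with replicate 1 as circles and replicate 2 as squares. GATA is lower near the 49 genes in both libraries, at 6.28% and 5.88% against 9.93% and 9.44%.

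Other genes of matrix proteolysis were described by a list of 36, of which 27 (75%) carried promoter peaks in both libraries, against 64.2% of all protein-coding genes. Of 8 activators of proenzymes 7 did, Pcsk5 with 103 and 84 and Furin, the convertase that cuts many MMP and ADAMTS proenzymes, with 69 and 72, while Plg, the plasminogen gene expressed in liver, had none. Of 4 inhibitors outside the TIMP family 2 did, among them Reck, a membrane-anchored inhibitor of MMPs, with 75 and 63. Of 12 related metalloproteases 9 did, with Adam10, a sheddase of membrane proteins, at 123 and 127. Of 12 substrates and relatives 9 did, with the versican gene Vcan at 85 and 77 and Sparc at 102 and 86, whereas the aggrecan gene Acan was listed in replicate 1 alone, with 19. The median number of distal peaks over the list was 9.25, against 6 for all protein-coding genes. Per 100 kb of window the median was 6.77, against 5.19.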

How the data were processed

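DNase-seq was done on 2 heart libraries of 1 group. Per the deposited text files, the authors called peaks and hotspots for each replicate on its own, from filtered alignments to mm10. The caller and aligner were not given in the sources used here. The deposited peak lists give a signal per peak with no normalization stated, and the deposited hotspot lists give a −log10 q-value from 1.3 to 6 and then 100. Read totals are not given, so the depth is unknown and precision rests on the spread between libraries.

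Chromosomes 1 to 19 and X were analysed with Python 3.11.15, pandas 2.3.3 and samtools 1.23.1. TSSs came from GENCODE vM21, and sequences came from GRCm38.p6, which has the primary sequence of mm10 (chromosome lengths were checked), and from the RefSeq promoter table. The genes without a RefSeq match were Adamts4, Adamts5, Adamts6, Adamts7, Adamts8, Adamts10, Adamts15, Adamts16, Adamts19, Adamtsl1, Mmp2, Mmp9, Mmp16, Mmp17 and Mmp19. Overlap meant at least 1 bp. No test was made, since 1 group has no contrast, and counts are given beside those of all protein-coding genes. The counting was tried on simulated lists with known answers.

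Full values were given for the Timp genes, 7 well-known heart matrix genes, the 10 highest promoters, genes listed in 1 library, the 8 genes with most distal peaks, the chromosome 9 cluster and the 5 highest distal peaks; printed sequences were chosen after the values were seen. The genes and lists were chosen with earlier results of these data known. Alternatives were other windows, TSS sets, stricter or equal-length peak lists, symbols with a letter after the number, and each library alone. Values of 1 gene of the matrix proteolysis list are not reported here.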

Additional observations from a re-analysis of the deposited data

How the results depend on the processing

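The 33 genes with a promoter peak in both libraries numbered 31 to 36 over other windows, TSS sets and peak thresholds, and 33 to 37 from each library alone. There were 31 in a 250 bp window, against 61.6% of all protein-coding genes, and 36 in a 1000 bp window, against 66.5%. There were 32 at the 5′ end alone, against 58.1%, and 32 for peaks at or above the library median, against 58.5%. Hotspots alone gave 34 to 37 from each library alone, and 20 when restricted to the highest −log10 q-value. The median number of distal peaks followed the window and the threshold, with that of all protein-coding genes in brackets. It was 4.5 (3) in 25 kb, 13.5 (12.5) in 100 kb, 5.5 (5) around the 5′ end alone, 5.5 (5) beyond 2 kb from every TSS, 3 (2.5) for peaks at or above the library median and 6 (4) for peaks found in both libraries. From each library alone it was 7 to 8, and without the chromosome 9 Mmp cluster, chosen after seeing the data, 8.5. The AP-1 share was 8.66% for peaks at or above the library median, 6.86% in 25 kb, 6.12% for peaks whose nearest protein-coding TSS was 1 of the genes, and 7.42% to 7.67% from each library alone. In all, 12 alternative values moved by more than the spread between libraries, or over 1.5 times for a count, and 29 did not. For the promoter values and distal counts of named genes, 128 moved and 286 did not. A named gene's value from 1 library alone always falls within that spread. Such alternatives could not move, and they say nothing about stability. The same holds for the AP-1 share from each library alone. The count of 6 promoters with AP-1 and no peak, whose alternatives were chosen after seeing the data, was 5 with TGACTCA and TGAGTCA alone. No paired analysis was possible because there is 1 group. The unknown depth and the caller's threshold limit what an unlisted peak shows.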
